A study of Homo sapiens with 32 samples.

Results

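Panc10.05 is an established human pancreatic ductal adenocarcinoma line, in which doxycycline induced either the P1-α2 or the P2-α8 isoform of the transcription factor HNF4α. The 4 peak lists of this experiment were chosen by the cell line in the label, from 18 libraries with a peak list among 32 samples of the series. Chromatin immunoprecipitation sequencing (ChIP-seq) mapped HNF4α with the antibody PP-H1415, called pan-HNF4α here because its label names no promoter. The P1-α2 cells received 25 ng/mL doxycycline and the P2-α8 cells 12.5 ng/mL, with 2 libraries per isoform. Isoform and dose therefore cannot be told apart, and neither the amount of induced protein nor the endogenous HNF4α was measured here. The labels do not say whether the induced lines were clones or what vector they carry. Overlapping peaks of the 4 lists were merged into 49247 regions. Of these, 1791 (3.64%) lay in both P1-α2 lists and neither P2-α8 list, 5370 (10.9%) in both P2-α8 lists and neither P1-α2 list, and 18736 (38.0%) in all 4. These classes are called P1-α2-only, P2-α8-only and shared, and the remaining 23350 regions had other combinations. A P1-α2-only region is one with no called peak in the P2-α8 lists, which does not show that P2-α8 was absent there.

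HNF4α is a nuclear receptor that binds DNA as a homodimer and keeps liver, gut and endocrine cells in their differentiated state. The HNF4A gene has a proximal promoter, P1, and a distal one, P2, and the isoforms they give share the DNA-binding domain but differ at the N-terminus, where P2 isoforms lack the full activation function of P1 isoforms. In pancreatic adenocarcinoma, HNF4α is known as a factor of the classical, gut-like subtype.

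Promoters that carry an HNF4 word and overlap an isoform-specific region are shown first, because they let the sequence under a region be read. Of the 7 such regions, those at PDZK1, IGSF23, STRA6 and MUC16 are printed and those at AJUBA, ZFHX3-AS3 and VOPP1 are not. Each line gives the 250 bases before a transcript start, 5′ to 3′ on the gene's strand, from RefSeq on GRCh38.p14, and the capitals mark the HNF4 word or its reverse complement. PDZK1, at chr1:145707369-145707618 on the minus strand, encodes a scaffold of apical transporters, and IGSF23, at chr19:44613313-44613562 on the plus strand, an immunoglobulin superfamily member. Both overlapped P1-α2-only regions. STRA6, at chr15:74212260-74212509 on the minus strand, encodes the cellular receptor for retinol-binding protein, and MUC16, at chr19:9010410-9010659 on the minus strand, the mucin known as CA125. Both overlapped P2-α8-only regions.
PDZK1: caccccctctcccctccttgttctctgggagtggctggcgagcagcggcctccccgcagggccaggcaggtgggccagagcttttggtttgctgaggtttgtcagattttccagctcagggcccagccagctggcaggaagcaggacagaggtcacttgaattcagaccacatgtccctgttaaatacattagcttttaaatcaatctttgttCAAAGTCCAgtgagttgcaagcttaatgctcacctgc
IGSF23: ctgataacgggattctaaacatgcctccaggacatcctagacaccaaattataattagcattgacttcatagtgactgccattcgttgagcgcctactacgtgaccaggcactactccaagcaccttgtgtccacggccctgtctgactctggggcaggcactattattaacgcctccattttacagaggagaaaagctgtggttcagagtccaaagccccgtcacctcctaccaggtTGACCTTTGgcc
STRA6: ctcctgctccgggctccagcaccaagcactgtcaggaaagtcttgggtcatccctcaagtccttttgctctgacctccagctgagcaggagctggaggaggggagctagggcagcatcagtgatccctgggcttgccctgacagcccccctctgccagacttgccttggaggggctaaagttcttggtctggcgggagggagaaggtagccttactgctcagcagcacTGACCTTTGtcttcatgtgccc
MUC16: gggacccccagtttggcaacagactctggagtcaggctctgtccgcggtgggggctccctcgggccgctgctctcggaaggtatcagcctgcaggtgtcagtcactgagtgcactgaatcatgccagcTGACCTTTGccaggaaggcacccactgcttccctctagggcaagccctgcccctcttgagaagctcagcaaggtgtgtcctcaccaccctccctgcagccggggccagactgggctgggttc

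The word began 37 bases before the start in PDZK1, 12 in IGSF23, 22 in STRA6 and 122 in MUC16. Peak strength is given here as a percentile, the rank of a peak by the authors' fold enrichment within its own list, with 100 the strongest. The PDZK1 region (chromosome 1, 145707119 to 145707734) stood at percentiles 29.6 and 53.0 in P1-α2 replicates 1 and 2. The IGSF23 region (chromosome 19, 44613323 to 44613721) stood at 52.0 and 34.4. In the P2-α8 replicates, the STRA6 region (chromosome 15, 74212047 to 74212640) stood at 67.3 and 72.7, and the MUC16 region (chromosome 19, 9010256 to 9010701) at 35.3 and 34.6. Of the 4 printed, STRA6 was the strongest. The ZFHX3-AS3 region, a P1-α2-only region that is not printed (chromosome 16, 73232298 to 73232965), stood higher, at 77.9 and 71.3.

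An HNF4 word was in the promoters of 4 P1-α2-only and 3 P2-α8-only regions, of unequal numbers of promoters. The words searched, on both strands, were CAAAGTCCA, CAAAGGTCA and CAAAGTTCA, in windows of 250 bases before to 50 after a start. Of 34943 windows, 378 (1.08%) held one. A window was overlapped by 61 P1-α2-only regions, and 4 of them (6.56%, exact 95% interval 1.82 to 15.9) held a word. It was held by 3 of 332 P2-α8-only regions (0.904%, 0.187 to 2.62) and by 79 of 1709 shared regions (4.62%, 3.68 to 5.73). The intervals cover counting error only, and a region can overlap several windows. With the looser word CAAAGNNCA, chosen after the data were seen, the shares were 8.20% for P1-α2-only, 4.22% for P2-α8-only and 11.8% for shared regions, beside 5.27% of all windows. The AP-1 word TGANTCA, also chosen after the data were seen, was in the windows of 14 P1-α2-only regions (23.0%, 13.2 to 35.5), 20 P2-α8-only regions (6.02%, 3.72 to 9.15) and 198 shared regions (11.6%), beside 7.72% of all windows. In all, 8 motifs were searched, and those that follow were also chosen after the data were seen. The FOX word TGTTTAC was at 3.28% of P1-α2-only, 0.904% of P2-α8-only and 3.34% of shared regions, beside 3.42% of all windows. The word AGATAA of GATA factors was at 8.20%, 4.82% and 7.55%, beside 10.4%, and the KLF word GGGCGTGG at 4.92%, 6.63% and 9.71%, beside 5.01%. The GRHL word AACNNGTT was at 0%, 2.11% and 3.45%, beside 3.53%. The remaining motif was at none of these regions. The promoters differed in base composition, with a median GC content of 57.3% at P1-α2-only, 65.0% at P2-α8-only and 64.7% at shared regions, against 58.7% over all windows. Its part in the motif shares was not tested.

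The lists differed in length between replicates of 1 isoform as well as between isoforms. The P1-α2 lists held 24828 and 34146 peaks and the P2-α8 lists 39111 and 33646. Each list began at a −log10 q just above 8, between 8.00 and 8.04. The median −log10 q was 37.4 and 42.1 for P1-α2 and 33.8 and 32.4 for P2-α8, so both P1-α2 lists had a higher median significance than both P2-α8 lists. Read depth is unknown, and nothing in the labels says whether replicates came from separate cultures. The combinations of lists showed how much the classes rested on single libraries. The most frequent combination after the shared class was P2-α8 replicate 1 alone, with 6274 regions. A further 4757 regions had a peak in P1-α2 replicate 2 and both P2-α8 lists but not in P1-α2 replicate 1, at a median percentile of 29.6 in P1-α2 replicate 2. P1-α2 replicate 2 alone held 3821 regions, P2-α8 replicate 2 alone 1934 and P1-α2 replicate 1 alone 859.

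**Figure D1:**
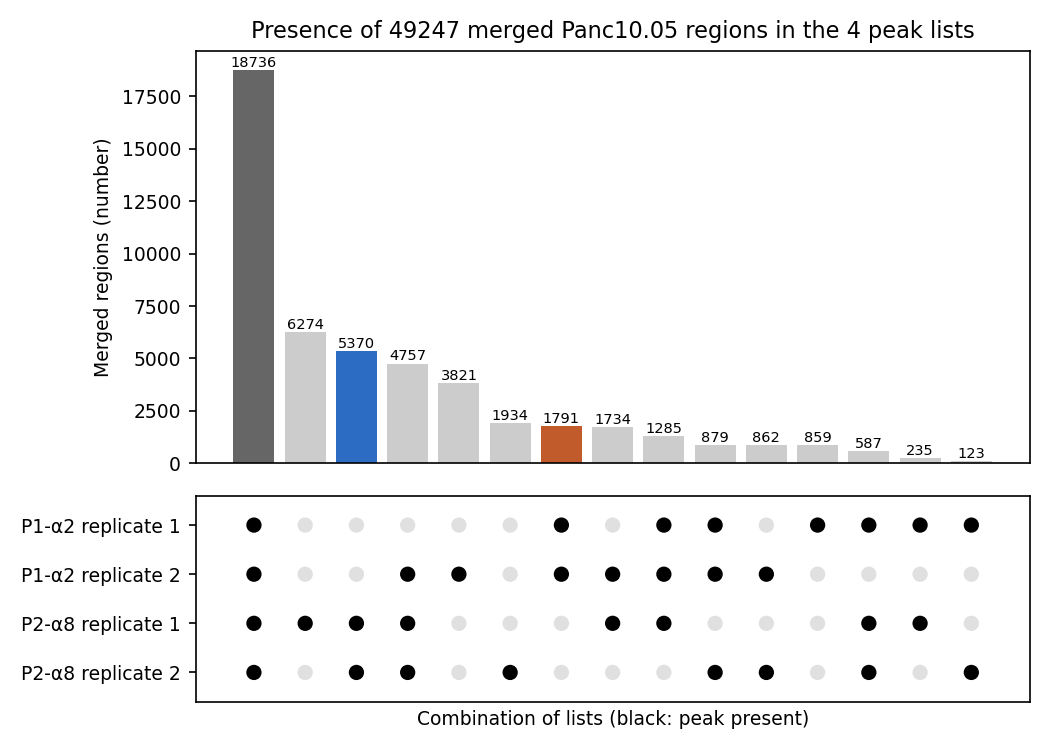
Bars give the number of merged regions for each combination of the 4 Panc10.05 lists, with black dots for the lists that hold a peak. Orange marks the 1791 P1-α2-only regions, blue the 5370 P2-α8-only regions and dark grey the 18736 shared regions.

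The excess of P2-α8-only regions was smaller with lists of equal length. With every list cut to its 24828 strongest peaks by fold enrichment, 2706 regions were P1-α2-only and 3079 P2-α8-only, so that the P2-α8-only share of specific regions fell from 75.0% to 53.2%. Leaving out a library relaxes the rule for both specific classes. Its own class then needs fewer lists with a peak, and the other class fewer lists without one. The P2-α8-only share was 51.5% without P1-α2 replicate 1, the shortest list, and 79.2% without replicate 2. It was 70.6% without P2-α8 replicate 1 and 81.4% without replicate 2. Specific regions were weaker than shared ones in either isoform. The median percentile was 34.3 for P1-α2-only, 36.3 for P2-α8-only and 63.9 for shared regions, and 16 P1-α2-only and 260 P2-α8-only regions had a mean percentile of at least 75.

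P1-α2-only regions lay farther from protein-coding genes than the other classes. Of the P1-α2-only regions, 19.2% had their middle over 100 kb from the nearest protein-coding gene, against 10.4% of P2-α8-only and 11.6% of shared regions. Over 500 kb the shares were 5.25%, 1.30% and 2.07%. Among regions outside genes, the median distance was 50.4 kb for P1-α2-only, 28.1 kb for P2-α8-only and 26.0 kb for shared regions. P2-α8-only regions were the most often inside a gene, at 54.5%, against 47.1% of P1-α2-only and 50.2% of shared regions. P1-α2-only regions also had the highest share among stronger regions: with a mean percentile of at least 50, 23.4% of 346 P1-α2-only, 12.2% of 1471 P2-α8-only and 12.2% of 13223 shared regions lay over 100 kb from a gene. With lists of equal length the shares over 100 kb were 16.8% for P1-α2-only and 11.5% for P2-α8-only regions. Against all 59679 genes of the table, noncoding ones included, the difference of 8.72 percentage points became 1.54.

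**Figure D2:**
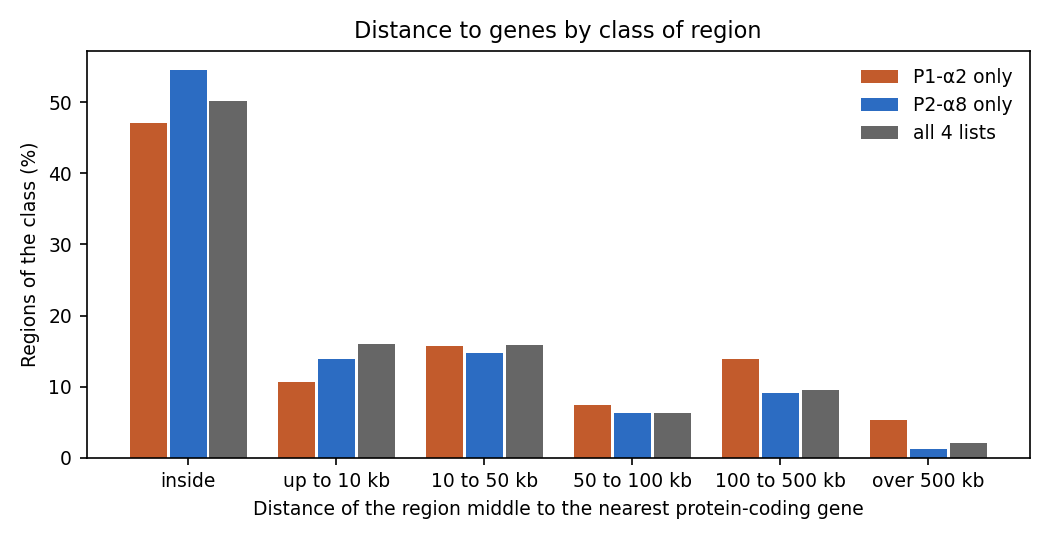
Bars give the percent of each class of region by the distance of its middle to the nearest protein-coding gene. P1-α2-only regions (orange) have the lowest bar inside genes, 47.1%, and the highest bars at 100 to 500 kb, 13.9%, and over 500 kb, 5.25%.

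Over whole lists, 1 value per library, these differences were small and could not pass a test. The share of peaks over 100 kb from a gene was 12.6% and 13.2% in the P1-α2 lists (12.9% ± 0.366, SD, n = 2) and 11.1% and 11.7% in the P2-α8 lists (11.4% ± 0.367, SD, n = 2). The groups did not overlap, and the difference of 1.51 points had a two-sided exact permutation p of 0.333, which is the minimum for 2 libraries against 2 (0.667 after Benjamini-Hochberg adjustment over 6 comparisons). The share inside a gene was 49.5% and 50.2% for P1-α2 and 52.1% and 51.4% for P2-α8, again without overlap (difference -1.83 points, exact permutation p = 0.333, adjusted 0.667). The share within 1 kb of a gene end was 10.0% and 11.1% for P1-α2 and 13.0% and 10.7% for P2-α8, and here the groups overlapped (exact permutation p = 0.667, adjusted 0.667). Peak number overlapped likewise, with a log2 difference of -0.32 (exact permutation p = 0.667, adjusted 0.667).

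P2-α8-only regions lay close to gene ends more often than P1-α2-only regions in the full lists, and not at equal length by fold. Within 1 kb of either end of a protein-coding gene lay 5.75% of P1-α2-only, 9.78% of P2-α8-only and 10.9% of shared regions. The P2-α8-only regions near gene ends were mostly weak: the share was 17.3% at percentiles 0 to 25, 7.95% at 25 to 50, 5.20% at 50 to 75 and 2.69% above 75. With lists of equal length by fold the shares were 8.06% for P1-α2-only and 7.63% for P2-α8-only, which turned the direction. Among regions with a mean percentile of at least 50 the difference was -0.423 points. Without P2-α8 replicate 1, the longest list, the difference of -4.03 points was -0.953.

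Specific regions were narrower than shared ones. The median width of the merged region was 429 bp for P1-α2-only, 481 bp for P2-α8-only and 708 bp for shared regions, which are merged from more peaks. The single lists had median peak widths of 453 and 489 bp for P1-α2 and 497 and 462 bp for P2-α8, and the groups overlapped (exact permutation p = 0.667, adjusted 0.667). Without either P2-α8 replicate the order of the specific classes turned.

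P2-α8-only regions lay in denser neighbourhoods than P1-α2-only regions. Within 12.5 kb, the distance used to join neighbours, 33.4% of P2-α8-only and 22.4% of P1-α2-only regions had a shared region. A neighbour of any class lay within that distance of 60.9% of P2-α8-only, 43.9% of P1-α2-only and 62.1% of shared regions. A neighbour of the same class lay within it for 16.3% of P2-α8-only and 3.52% of P1-α2-only regions, in classes of unequal size. At equal list length by fold, with 3079 P2-α8-only and 2706 P1-α2-only regions, the shares were 10.2% and 6.02%. Joined at 12.5 kb, the P2-α8-only regions formed 373 pairs and 41 larger clusters of up to 6 regions, and the P1-α2-only regions 27 pairs and 3 clusters of 3. The nearest region of a P1-α2-only region was another P1-α2-only region in 7.54% of cases, where that class made up 3.64% of all regions. For P2-α8-only the values were 16.1% and 10.9%. Over whole lists, 40.5% and 48.5% of P1-α2 peaks and 54.9% and 50.9% of P2-α8 peaks had another peak within 12.5 kb, without overlap (difference -8.34 points, exact permutation p = 0.333, adjusted 0.667). This measure moves with peak number, and at equal length the difference was -2.40.

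The isoform-specific regions were unevenly spread over the chromosomes. P2-α8-only regions made up 75.0% of the 7161 specific regions, but 91.9% on chromosome 20 (251 against 22 P1-α2-only) and 90.9% on chromosome 12 (430 against 43). The share was lowest on chromosome 2, at 56.8% (318 against 242). On chromosome 1 it changed along the chromosome: below 130 Mb, a boundary chosen after the data were seen, 308 P2-α8-only and 80 P1-α2-only regions gave 79.4%, and above it 76 and 151 gave 33.5%. In 20 Mb blocks above that boundary the share was 22.7% to 42.6%. At equal list length the share was 53.2% over all chromosomes, 76.6% on chromosome 20, 69.3% on chromosome 12 and 40.8% on chromosome 2. Chromosomes 9 (70.3%) and 22 (69.7%) were then above chromosome 12, and chromosomes 7 (34.2%) and 1 (38.8%) below chromosome 2. On chromosome 1 it was 58.5% below and 14.9% above the boundary.

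The shared regions moved the same way along the genome. Ranked among the 18736 shared regions alone, those on chromosome 1 above 130 Mb had a median rank 12.4 percentile points higher in the P1-α2 than in the P2-α8 lists, against 0.197 points below it. On chromosome 20 the median was -3.27 points and on chromosome 12 -2.56. Over 23 chromosomes, the P2-α8-only share and the median rank difference of the shared regions had a Spearman rho of -0.784 and a Pearson r of -0.741, given as a description, since all chromosomes come from the same 4 libraries. DNA copy number and the input libraries were not analysed here. The difference in distance to genes was nearly as large with the mix of whole chromosomes held equal. The spread along each chromosome was not held equal. Weighted to the chromosome mix of the P2-α8-only class, 18.9% of P1-α2-only regions lay over 100 kb from a gene, and their share was the higher one on 21 of 23 chromosomes.

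**Figure D3:**
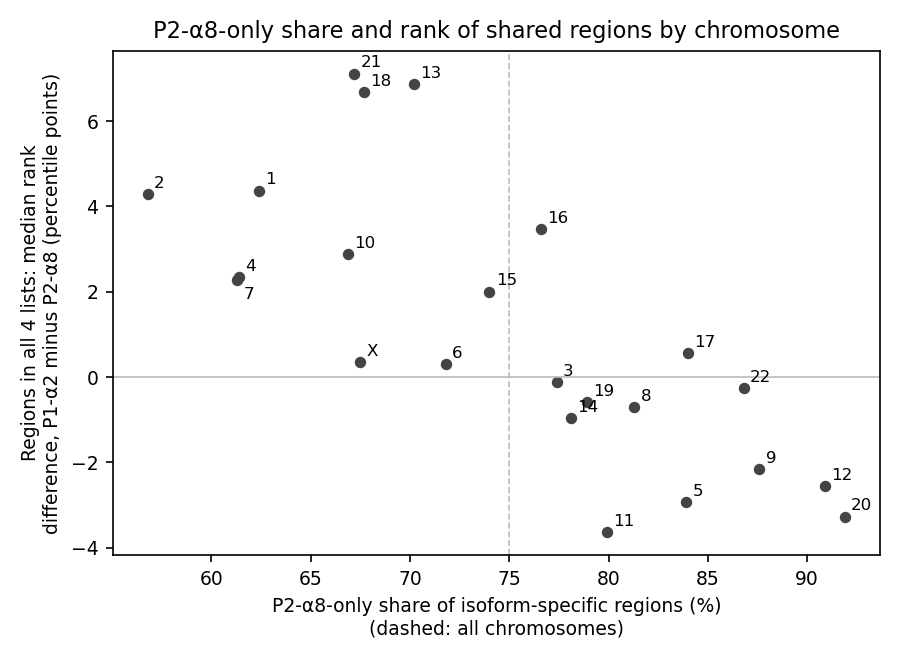
Each point is a chromosome, with the P2-α8-only share of its isoform-specific regions on the x axis and the median rank difference of its shared regions (P1-α2 minus P2-α8, percentile points) on the y axis. Chromosomes 20 and 12 lie at the lower right and chromosomes 1 and 2 at the upper left.

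Among the strongest P1-α2-only regions, 4 of 10 lay on chromosome 1 and 3 on chromosome 2. Those on chromosome 1 all lay above 130 Mb, where the shared regions had a median rank 12.4 percentile points higher in the P1-α2 lists. The strongest region of the class, 88.5 kb from PTPRC, the leukocyte phosphatase CD45, had percentiles 87.5 and 88.5 in P1-α2 replicates 1 and 2. The region inside LIN9, a subunit of the cell-cycle MuvB complex, stood at 87.5 and 84.4, and one near KIF21B, a kinesin (chromosome 1, 201028230 to 201028771), at 85.6 and 79.9. A region inside CPT1C, a brain-expressed relative of carnitine palmitoyltransferase (chromosome 19, 49710501 to 49711191), stood at 78.7 and 83.9. Regions 964 kb from SUCLG1 (chromosome 2, 83459430 to 83459907) and 636 kb from LRATD1 (chromosome 2, 13996495 to 13996942) show that the nearest gene can be far. The others lay nearest to CTNNA3, ZNF679, ACTR3 and SYT14, and mean percentiles of all 10 ran from 80.6 to 88.0.

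Drawn from a larger class, the strongest P2-α8-only regions ranked higher in their lists, with mean percentiles from 93.6 to 98.7. PCK1, the cytosolic enzyme that starts gluconeogenesis, had one 9.70 kb away at percentiles 99.2 and 98.3 in P2-α8 replicates 1 and 2. A weaker one lay 0.375 kb from the gene (chromosome 20, 57568166 to 57568825), at 34.7 and 7.78. A region near NKX2-5, a cardiac homeobox gene (chromosome 5, 173265357 to 173266425), stood at 95.7 and 96.7. One lay 5.55 kb from PYCARD, the inflammasome adaptor ASC (chromosome 16, 31207820 to 31208800), at 97.1 and 91.7. Regions inside SHANK1, a postsynaptic scaffold (chromosome 19, 50661516 to 50662256), and inside PHACTR3 (chromosome 20, 59754287 to 59755143) stood at 98.1 and 90.6 and at 96.3 and 91.0. The remaining regions of this rank were inside MTSS1 and near CORO2B, CD300LD, PDCD2 and EFR3A. The 5 strongest shared regions, by contrast, were inside ZFP62 and VDAC1 and near TMEM141, ISL1 and NOTCH2, each at a percentile of 99.9 to 100 in all 4 lists.

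The P2-α8-only class, with more regions, was nearest to 3818 (19.1%) of 20037 protein-coding genes and the P1-α2-only class to 1522 (7.60%). At equal list length by fold the counts were 2447 (12.2%) and 2195 (11.0%). Of genes nearest to 1 specific class only, PTPRU, a receptor tyrosine phosphatase, and PREX1, a Rac exchange factor, each had 9 P2-α8-only regions, while LOC107984449 had 11. NECTIN1, an adhesion receptor, EEFSEC and MED13L had 7 each, and SULF2, COL15A1 and PJA1 6 each. A region nearest to a gene need not lie inside it. Inside the gene lay 2 of 9 for PTPRU, 1 of 9 for PREX1 and 1 of 11 for LOC107984449, but 6 of 7 for EEFSEC. Of these genes, PREX1 and SULF2 are on chromosome 20, where the P2-α8-only share was highest. LOC107984449 and MED13L are on chromosome 12, where it was 90.9%. For P1-α2-only, NBPF20 on chromosome 1 led with 7 regions, a member of a multigene family of near-identical copies, so its peaks may come from reads shared among copies. SUCLG1, TEX36 and LRRC4C had 4 each, and CTNNA3, INTS7, CSMD3, OLFM3, IQGAP3 and THADA 3 each. The regions of NBPF20, INTS7 and IQGAP3 lay on chromosome 1 above 130 Mb. Those of SUCLG1 and THADA lay on chromosome 2, where the P2-α8-only share was lowest, and the others lay elsewhere. The 100 kb windows richest in P2-α8-only regions held 5 each. They lay at SERPINA6 and SERPINA1, which encode corticosteroid-binding globulin and alpha-1-antitrypsin (chromosome 14, 94343158 to 94387893), at COL15A1 (chromosome 9, 98907012 to 98999366) and at STARD3, TCAP and PGAP3 (chromosome 17, 39636867 to 39676159). For P1-α2-only the windows held 4, 4 and 3 regions, at NBPF20, again at NBPF20, and at INTS7, an Integrator subunit (chromosome 1, 211910056 to 211986064).

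Among 131 listed genes in 8 functional groups, 22 were the gene nearest to a P1-α2-only region and 46 the gene nearest to a P2-α8-only region, 9 of them to both, while 87 had a shared region. Over all 20037 protein-coding genes the percentages were 7.60%, 19.1% and 43.6%. The shares of listed genes were above the background in all 3 classes, so also for shared regions. The lists were chosen with earlier results of these data known, so an excess may come from that choice. At equal list length by fold the counts were 33 and 30, where 11.0% and 12.2% of all genes qualified.

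Endoderm transcription factors had a P2-α8-only region at 9 of 18 genes and a P1-α2-only region at 3. Of all protein-coding genes, 19.1% and 7.60% had one. The counts by group, here and below, are those of the full lists, of unequal length. HNF4A itself had a pair of P2-α8-only regions within the gene, at 44388572 to 44389244 on chromosome 20 (percentiles 27.3 and 28.6) and at 44414852 to 44415175 (34.0 and 44.2). Its 3 shared regions included one 13.5 kb outside the gene (44447634 to 44448653), at 83.5 and 95.4 for P1-α2 and 99.6 and 99.5 for P2-α8. CDX1, an intestinal homeobox gene, had one inside at 50.2 and 67.4. SOX9, a duct and progenitor factor, had 4 P2-α8-only regions, the nearest of them 141 kb away, and a P1-α2-only region 796 kb away. GATA6, KLF4, KLF5, ISX and HNF4G were also among the P2-α8-only genes. GATA4 had P1-α2-only regions alone, a pair inside the gene, at percentiles 16.6 and 42.3 and at 45.7 and 42.3. PROX1 had one, 61.2 kb away, at 62.4 and 19.3.

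Nuclear receptors had a P2-α8-only region at 11 of 22 genes and a P1-α2-only region at 4, beside 19.1% and 7.60% of all protein-coding genes. RXRA, the common heterodimer partner, and VDR, the vitamin D receptor, had 4 P2-α8-only regions each, 3 of them inside RXRA and 4 inside VDR. PPARA, the fatty acid receptor, had a pair, at 83.3 and 55.1 and at 81.7 and 63.4. NR3C1, the glucocorticoid receptor, had a pair inside the gene, the stronger at 66.3 and 80.6. NR5A2, a pancreatic and biliary receptor on chromosome 1, had P1-α2-only regions alone. One was 289 kb away at 18.0 and 79.0, and one was inside the gene at 49.3 and 11.2. The replicates of these NR5A2 regions differed widely in rank. NR2F2 had a P1-α2-only region 246 kb away, at 25.8 and 21.1. NR2F1 and PPARG had regions of both classes.

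In the metabolic groups, genes with a P1-α2-only region were as many as genes with a P2-α8-only region or more, where 7.60% and 19.1% of all protein-coding genes had one. In glucose metabolism, 3 of 12 genes had a P1-α2-only region, PKLR and LDHA among them, and 2 a P2-α8-only region, PCK1 and PPARGC1A. The PKLR region, inside the gene for liver pyruvate kinase, stood at 36.4 and 54.3. In lipid transport and oxidation, APOA2 and APOB had a P1-α2-only region and LIPC and CPT1A a P2-α8-only region, among 15 genes. The APOA2 region lay 0.771 kb from this apolipoprotein gene at 48.8 and 58.9. The cluster of APOA1, APOA4 and APOC3 had no specific region nearest to it.

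Among intestinal differentiation genes, 6 of 16 had a P2-α8-only region and 2 a P1-α2-only region, beside 19.1% and 7.60% of all protein-coding genes. MYO7B, a brush border myosin, had a pair of P2-α8-only regions inside the gene at 65.8 and 65.1 and at 70.1 and 58.2. CDH17, MUC13, DPP4 and MEP1A had one each, and SI had one of each class, both over 1 Mb away. USH1C, the microvillar scaffold harmonin, had a P1-α2-only region inside at 60.1 and 40.9. Of 16 gastric and classical subtype genes, 2 had a P1-α2-only region and 3 a P2-α8-only region, beside 7.60% and 19.1% of all protein-coding genes. The P2-α8-only count was thus near the share over all genes. ANXA10 and REG4 had P1-α2-only regions and MUC1, LYZ and TSPAN8 P2-α8-only regions, while TFF1, TFF2 and TFF3 were nearest to none. The LYZ regions stood at 2.32 and 1.75 and at 4.59 and 32.0. The ANXA10 region inside the gene stood at 63.1 and 51.0 and the TSPAN8 region inside the gene at 82.1 and 70.6. The MUC1 region stood at 67.3 in P2-α8 replicate 1 and 0.0476 in replicate 2, where it was among the weakest peaks of the list.

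Of 15 basal, squamous and mesenchymal genes, 4 had a P2-α8-only region and 2 a P1-α2-only region, beside 19.1% and 7.60% of all protein-coding genes. TP63, KRT5, KRT6A and ZEB2 had P2-α8-only regions, and ZEB2 and FN1 P1-α2-only regions. The FN1 regions were weak, at percentiles 9.93 and 4.07 and at 13.0 and 13.4. ZEB2, a repressor of epithelial genes, had 5 P1-α2-only and 4 P2-α8-only regions, all 64.1 kb to 1578 kb from the gene. KRT6A had a P2-α8-only region 1.87 kb away at 74.1 and 59.1. Of 17 growth control genes, 9 had a P2-α8-only region and 4 a P1-α2-only region, beside 19.1% and 7.60% of all protein-coding genes. Those 4, MYC, EGFR, IGF1R and YAP1, had both. MYC was nearest to 9 P2-α8-only regions and 1 P1-α2-only region beside 34 shared ones. CCND1, CDKN1A, ERBB3, AXIN2 and TCF7L2 had P2-α8-only regions alone. The CDKN1A region, 23.9 kb from this cell cycle inhibitor, stood at 79.8 and 60.9.

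**Figure D4:**
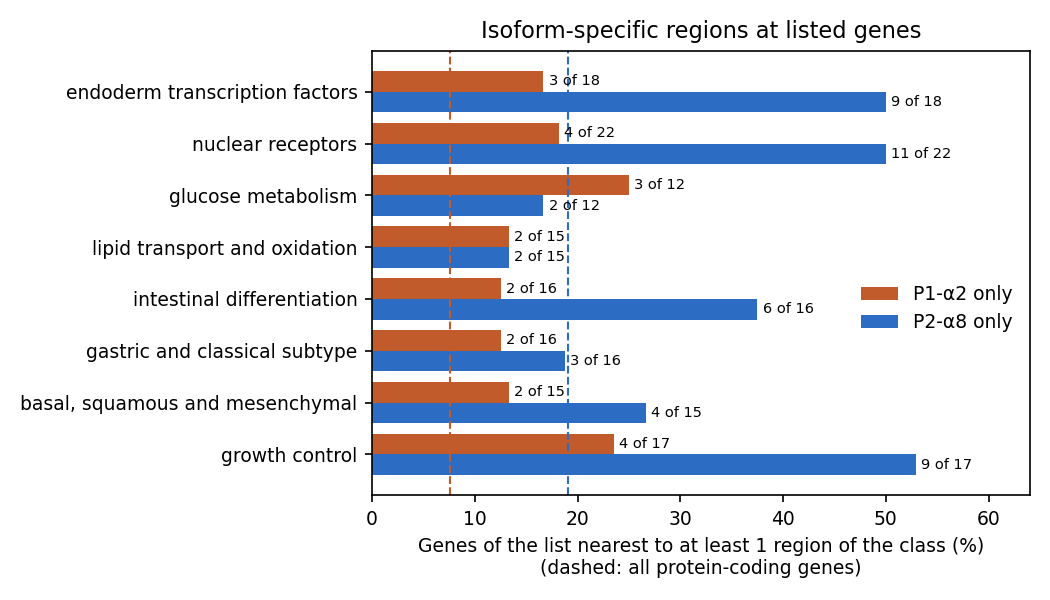
Bars give the percent of genes in each list that were nearest to at least 1 P1-α2-only (orange) or P2-α8-only (blue) region, with the counts beside them, and dashed lines the same over all protein-coding genes (7.60% and 19.1%). The P2-α8-only bars of endoderm transcription factors, nuclear receptors and growth control genes are the longest.

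Within the shared class, the ranks of the isoforms did not overlap at many regions. Ranks of the 18736 shared regions correlated more between replicates (Spearman rho 0.753 for P1-α2 and 0.723 for P2-α8) than between isoforms (0.514 to 0.612). Both P1-α2 ranks were above both P2-α8 ranks in 4756 regions (25.4%), and both were below in 4534 (24.2%). The direction towards genes was that of the specific classes, but smaller: 12.7% of the first set and 10.5% of the second lay over 100 kb from a gene. The largest P1-α2 excess was near CTNNA3 (chromosome 10, 65861162 to 65861874), with ranks 86.2 and 96.0 for P1-α2 against 18.6 and 5.48 for P2-α8. Another was inside SEC16B, an endoplasmic reticulum export gene (chromosome 1, 177969615 to 177970538), with 97.5 and 96.5 against 26.0 and 18.6. The other regions of this rank were inside DHX35, UTS2B and BCAS3. The largest P2-α8 excess was near MRPL15 (chromosome 8, 54172896 to 54173751), with 4.39 and 5.06 for P1-α2 against 97.3 and 91.1. EFCAB12, SARDH, RAB2A and PTP4A3 followed, with PTP4A3, a phosphatase gene, at 12.9 and 17.7 against 97.4 and 97.8.

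Lists that the class rule did not use gave a comparison of the classes across cell lines. In AsPC1, a pancreatic line with endogenous HNF4α expression under CRISPR interference, P1-α2-only regions of Panc10.05 were found more often than P2-α8-only regions in each of the 6 lists made with the same antibody. With the control guide sgNC, 41.3% and 31.1% of P1-α2-only regions overlapped a peak, against 10.5% and 4.54% of P2-α8-only regions. With the guide to P1 the values were 29.8% and 25.5% against 4.17% and 3.02%, and with the guide to P2 26.3% and 30.8% against 3.58% and 5.08%. Shared regions were recovered at 29.7% to 45.6%, close to the P1-α2-only class, although the P1-α2-only peaks ranked far lower in Panc10.05. The ratio of P1-α2-only to P2-α8-only recovery was 3.94 to 8.46 over the 6 lists. It was 7.13 and 8.46 with the P1 guide and 7.36 and 6.06 with the P2 guide, so that the guides overlapped. With an antibody to P1 isoforms, the lists under the P2 guide held 9.32% and 7.15% of P1-α2-only and 0.708% and 0.447% of P2-α8-only regions.

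In BxPC3, induced with 500 ng/mL doxycycline for either isoform, the difference was smaller and did not follow the isoform. The BxPC3 P1-α2 lists held 56.6% and 42.2% of P1-α2-only and 28.8% and 25.5% of P2-α8-only regions. The BxPC3 P2-α8 lists held 15.4% and 14.6% of P1-α2-only and 6.74% and 10.7% of P2-α8-only regions. P2-α8-only regions of Panc10.05 were thus not more often found than P1-α2-only regions in the lists of the same isoform in BxPC3. With the BxPC3 lists cut to 12681 peaks, P1-α2-only recovery was 12.3% to 16.2% and P2-α8-only recovery 6.74% to 9.20% over the 4 lists. No peak in any of these 10 lists was found at 25.1% of P1-α2-only, 57.8% of P2-α8-only and 13.1% of shared regions. Over the AsPC1 lists of this antibody, mean P1-α2-only recovery was 5.99 times mean P2-α8-only recovery, and 6.53 times with the Panc10.05 lists cut to equal length by fold. The ratio was 2.73 without Panc10.05 P1-α2 replicate 1 and 3.84 without replicate 2. Leaving out either relaxes the rule for both specific classes. Cell line, doxycycline and the prefix of the library names differ together in these comparisons and cannot be told apart.

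**Figure D5:**
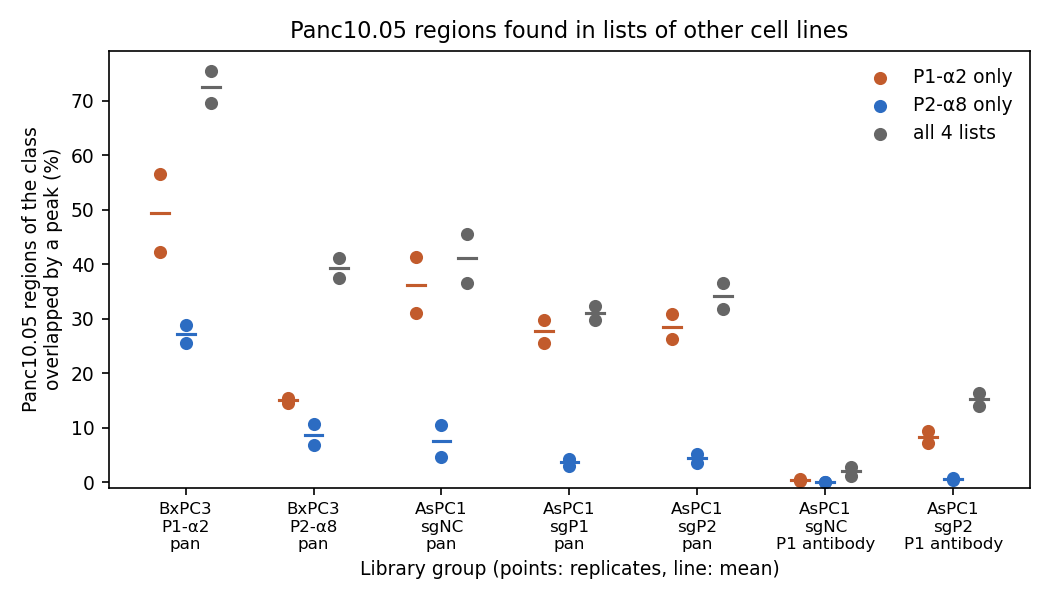
Points give the percent of Panc10.05 P1-α2-only (orange), P2-α8-only (blue) and shared (grey) regions overlapped by a peak in each library of the other lines, with the mean of 2 replicates as a line. In each of the 6 AsPC1 pan-HNF4α libraries the orange point lies far above the blue point and near the grey one.

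The strongest specific regions were found unevenly in these lists. Of the 10 strongest P1-α2-only regions, LIN9 and KIF21B were found in 6 of 6 AsPC1 lists and in 3 of 4 BxPC3 lists, SUCLG1 in 5 and ACTR3 in 4 of the AsPC1 lists. SYT14 was in 1 AsPC1 list, and PTPRC, CTNNA3, ZNF679, CPT1C and LRATD1 were in 0, CPT1C in none of the 10 lists. Of the 10 strongest P2-α8-only regions, 0 were found in an AsPC1 list, while PCK1 was found in 3 BxPC3 lists and MTSS1, CD300LD and EFR3A in 2 each. NKX2-5, PDCD2, SHANK1 and PHACTR3 were in none of the 10.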

How the data were processed

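The 4 Panc10.05 ChIP-seq libraries were analysed from the peak lists the authors deposited, 1 per library, and 14 further lists served for recovery. Per the submitters' processing notes, Bowtie2 2.2.9, MACS2 2.2.7, hg38 and mm10 were used, with no role given. In each deposited list the fold enrichment is a linear ratio, p and q are −log10 values, and an integer score repeats the q-value. The control used for calling is not given in the sources used here. Read depth is unknown, so its part in the precision of the lists could not be judged.

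Peaks overlapping by at least 1 bp were merged. Distances run from the middle of a region to the span of the nearest of 20037 protein-coding genes on chromosomes 1 to 22, X and Y, from RefSeq (GRCh38.p14). Promoter windows came from RefSeq for 15738 of these genes, and none from chromosome 8. A genome sequence was not used here, so motifs were searched in promoters only. Percentiles rank fold within a list, or within the shared regions. Per-library values were compared by two-sided exact permutation tests, and p-values measure only the spread between these samples. Regions are not replicates and were not tested.

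Named items were the 10 strongest regions of each specific class and 5 of the shared class, the 10 genes nearest to the most regions of 1 specific class and none of the other, the 5 shared regions in each direction with the largest rank difference, the 3 richest windows of 100 kb per class, and the listed genes. Classes, lists and members were chosen with earlier results of these data known. Some items that these rules select are counted but not reported by name here.

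Alternatives were a −log10 q of at least 20, a summit distance of up to 100 bp or a reciprocal overlap of 50% in place of 1 bp, Panc10.05 lists cut to 1 length (by fold, by −log10 p), a replicate block, each replicate left out in turn, regions of percentile 50 or more, all genes of the table, gene distances of 10 and 50 kb, clustering at 50 kb, and recovery lists of equal length. Equal lengths for the per-library values, the looser HNF4 word, the shares by chromosome and the further motifs were chosen after the data were seen. No label ties a replicate number to a batch. For each merged region, the presence of a peak in a library was taken as its deviation from the mean of its isoform. Over all merged regions these deviations correlated at 0.0277 between same-numbered libraries, and the numbers were not taken as pairs. Code (Python 3.11.15, numpy 2.4.6, pandas 2.3.3, scipy 1.17.1) was tested on simulated data and checked against bedtools 2.31.1, with 0 differing calls.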

Additional observations from a re-analysis of the deposited data

Results flagged for a closer look

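The share of peaks with another peak within 12.5 kb moved in opposite directions in the induced lines. In Panc10.05 it was 40.5% and 48.5% for P1-α2 and 54.9% and 50.9% for P2-α8. In BxPC3 it was 53.6% and 50.2% for P1-α2 and 30.4% and 33.4% for P2-α8. Within each line the isoforms did not overlap, and the differences of -8.34 and 20.0 points differ by -28.3 points. Over 36 labellings the exact permutation p of that difference was 0.0556, the smallest they can give. Peak number moved with it, with log2 differences of -0.32 in Panc10.05 and 1.46 in BxPC3. With lists cut to equal length by fold within each line, after the data were seen, the differences were -2.40 points in Panc10.05 and -4.02 in BxPC3, so the directions were no longer opposite. Doxycycline was 500 ng/mL for both isoforms in BxPC3, and 25 and 12.5 ng/mL in Panc10.05.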

How the results depend on the processing

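All 6 per-library comparisons kept their exact permutation p above 0.05, which 2 libraries against 2 cannot pass, and this says nothing about stability. With a replicate block, the share over 100 kb differed by 1.51 points with an exact permutation p of 0.500, the smallest possible, and the block changed no call. Leaving out a library gave differences of -26.5 to 9.50 bp in median peak width (-8.50), which turned without P1-α2 replicate 1 (9.50) and P2-α8 replicate 1 (9.0).

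The class counts (1791 P1-α2-only, 5370 P2-α8-only) were 2706 and 3079 at equal length by fold and 2841 and 3192 by −log10 p. Leaving out a library, which relaxes the rule, gave 2663 to 5615 and 5958 to 11658, and shared regions of 1 direction rose from 4756 to between 7396 and 8728 and from 4534 to between 7055 and 8431. The difference over 100 kb (8.72 points) kept its sign throughout: 5.58 at a −log10 q of at least 20, 5.35 and 5.24 at equal length by fold and by −log10 p, 6.39 with reciprocal overlap, 6.38 with summits, 11.2 in the stronger regions, 1.54 with all genes, and 6.14 to 9.23 leaving out a library. The difference inside genes (-7.44) was -4.57 at the stricter q and -3.65 at equal length by −log10 p.

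The difference within 1 kb of a gene end (-4.03) turned at equal length by fold (0.424). It was -0.218 by −log10 p, -2.24 at the stricter q, -1.32 with reciprocal overlap, -1.34 with summits, -0.423 in the stronger regions, -5.56 with all genes and -9.85 to -0.953 leaving out a library. The cause was not tested. The difference within 12.5 kb of a shared region (-10.9) was -6.31 at equal length by fold, -6.57 with reciprocal overlap, -6.04 with summits, -14.1 in the stronger regions, -14.3 at 50 kb and -12.1 to -7.61 leaving out a library. The width difference (-52.0 bp) was -41.0 at equal length by fold, -28.0 with summits and -168 to 89.0 leaving out a library. It turned without P2-α8 replicate 1 (89.0) and replicate 2 (46.0), where P2-α8-only regions are single peaks of 1 list.

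The AsPC1 recovery ratio (5.99) was 14.2 in the stronger regions and 2.73 to 7.04 leaving out a library, and the BxPC3 ratio (1.79) 1.23 to 2.46. The difference in HNF4 words at promoters (5.65 points) was 1.13 to 7.21. The P2-α8-only share of chromosome 20 was 77.7% to 91.9% and that of chromosome 2 37.1% to 67.8% leaving out a library. Counts of listed genes within 10 kb were 14 and 40, where 5.78% and 17.8% of all genes qualified, and within 50 kb 25 and 56 (11.8% and 33.7%).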
